A study of Rattus norvegicus with 23 samples.

Results

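Drd1, Drd2, Adora2a and Ppp1r1b are 4 genes of dopamine signaling in striatal projection neurons, and their expression was examined in the dorsal striatum of 23 rats. The genes were chosen by name for their place in this pathway and matched by Ensembl identifier and chromosome: ENSRNOG00000023688 (Drd1), ENSRNOG00000008428 (Drd2), ENSRNOG00000001302 (Adora2a) and ENSRNOG00000028404 (Ppp1r1b). They are 4 of the 32552 genes listed in the count files, and all 4 were among the 16275 genes that passed the filter on low counts. The rats were adult male Long Evans animals of wild type genotype, with 1 RNA library each.

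The METH groups had self-administered methamphetamine (METH, 0.1 mg/kg per infusion, 22 days of training by the sample labels) and had received footshocks on part of their lever presses. Shock strength started at 0.18 mA and reached 0.36 mA within 8 days. These first shocks were followed by 15 days of abstinence and 12 further days of METH access with a 0.30 mA shock phase of 3 days. The paper's methods place this phase in the last 3 of the 12 days. A second abstinence of 15 days came after it. Always shock-resistant rats (ASR, n = 6, SR in the labels) kept taking METH in both shock phases. Delayed shock-resistant rats (DSR, n = 5, RSR) reduced their intake in the first phase and resisted in the second. Always sensitive rats (AS, n = 6, SS) reduced it in both. Control rats (CT, n = 6, Ct) took saline, and the labels describe footshocks for METH rats only. Tissue was collected the day after the test of drug seeking that ended this second abstinence, and so not directly after the second shocks. The 3 METH groups were sorted by behavior and share access to the drug, the shock schedule and the abstinence, so no group differs from CT in behavior alone. They did not take equal amounts. The paper reports higher METH intake in ASR than in DSR and AS rats late in the first shock phase. In the second it reports higher intake in ASR and DSR than in AS rats. The METH groups therefore differ in drug intake as well as in resistance. Shocks came with lever presses, and the number each rat received is not given.

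Dopamine acts on the projection neurons of the striatum, which form a direct pathway and an indirect pathway to the output nuclei of the basal ganglia. Drd1 encodes the D1 receptor, which raises cyclic AMP in direct pathway neurons. Drd2 encodes the D2 receptor, which lowers cyclic AMP, and is found in indirect pathway neurons as well as in cholinergic interneurons and on dopamine terminals, whose cell bodies lie outside the striatum. Adora2a encodes an adenosine receptor of the striatum, which raises cyclic AMP in indirect pathway neurons and opposes D2. Ppp1r1b encodes DARPP-32, which is abundant in projection neurons of both pathways and inhibits protein phosphatase 1 once protein kinase A has phosphorylated it. In bulk tissue, fewer cells of a type and less RNA per cell cannot be told apart.

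On Rnor6.0, the build of the counts, Drd1 is a single exon of 2236 bases on the plus strand of chromosome 17 (chr17:11101306-11103541). Drd2 has 8 exons on the plus strand of chromosome 8 (chr8:53678777-53743642) with 2747 exonic bases in all. Exon 6 of Drd2, the 87 bases from 53737768 to 53737854, is in 1 of its 2 transcript records, so transcripts with and without it, the long and short forms of the D2 receptor, were counted together. Adora2a has 3 exons with 2485 bases on the minus strand of chromosome 20 (chr20:14265252-14282873), and Ppp1r1b has 7 exons with 1739 bases on the plus strand of chromosome 10 (chr10:86303727-86312762). No other gene of the annotation overlaps any of the 4.

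Start-site sequences from RefSeq (GRCr8) matched 2 of the 4 genes by symbol, Drd1 and Drd2, and both windows are shown. A link between these sequences and the levels was not tested. Each window holds the 250 bases before the start listed for the gene, on the plus strand, with capitals marking a GC box (GGGCGG on either strand).
Drd1 (chr17:10546354-10546603): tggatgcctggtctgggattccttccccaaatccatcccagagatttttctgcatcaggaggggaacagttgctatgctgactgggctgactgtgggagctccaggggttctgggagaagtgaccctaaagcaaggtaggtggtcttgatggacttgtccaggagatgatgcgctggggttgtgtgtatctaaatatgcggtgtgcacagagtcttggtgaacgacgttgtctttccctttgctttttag
Drd2 (chr8:58605153-58605402): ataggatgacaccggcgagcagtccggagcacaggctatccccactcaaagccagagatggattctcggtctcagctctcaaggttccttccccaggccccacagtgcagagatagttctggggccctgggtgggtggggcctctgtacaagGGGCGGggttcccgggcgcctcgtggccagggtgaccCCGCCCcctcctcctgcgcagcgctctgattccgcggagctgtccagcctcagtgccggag
The Drd2 window is 66.0% G and C and holds 2 GC boxes, 98 and 61 bases before the start. The Drd1 window is 51.2% G and C, equal to the median of 33469 such windows, and holds 0. The listed start of Drd1 lies 1116 bases downstream of the 5′ end of the gene's span in that annotation, so it is not the outermost start. The whole Drd1 window therefore lies inside the span of the gene. Its content does not describe the sequence before the 5′ end, unlike the Drd2 window, and the 2 windows are not like for like. GC boxes occur in 30.5% of the 33469 windows. Neither window holds the letters TGACGTCA (in 1.59% of all windows), the shorter TGACG contained in them (18.2%) or TATAAA (12.9%), searched on both strands. A match in letters is a description of the window and not a measured site.

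The libraries held between 18967015 and 28137676 counts, with a median of 23069812. Every DSR library was deeper than every AS library. Mitochondrial genes took 11.6% to 19.6% of the counts, with the highest share in the AS rat Grp7-R1. Each rat code contains a 7 or an 8, which the sources do not explain, and rats of both numbers were present in every group (13 rats with 7 and 10 with 8). After adjustment over all genes, edgeR's quasi-likelihood test called 0 of 16275 genes in every comparison.

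Levels are given as CPM, a gene count scaled to a library of fixed size after TMM correction. All 4 genes were abundant, as is usual for markers of projection neurons. The mean level over the 23 rats, per kilobase of exon, was 1013 CPM for Ppp1r1b, 130 for Adora2a, 70.4 for Drd2 and 58.1 for Drd1. On this scale 99.8%, 96.8%, 93.2% and 91.5% of the genes tested were lower, in the same order. Ppp1r1b was above Adora2a in 23 of 23 libraries, by a median ratio of 7.99 per kilobase (range 6.60 to 9.07). Adora2a exceeded Drd2 in 23 of 23 libraries, by a median ratio of 1.85 (1.64 to 2.14). Drd2 and Drd1 were the closest neighbours, with a median ratio of 1.20, Drd2 being higher in 22 of 23 libraries, and in the remaining library the ratio was 0.997. These per-kilobase values rest on the Rnor6.0 gene models. The Drd1 model spans 2236 bases there, where RefSeq on GRCr8 gives a span of 4542. Whether the order of Drd2 and Drd1 depends on the model was not tested.

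Drd1 in CT rats ranged from 61.5 to 163 CPM with a median of 118, and its mean was 118 ± 37.3 CPM (SD, n = 6). The ASR rats ranged from 69.7 to 186 CPM, with a median of 111 and a mean of 120 ± 40.6 (SD, n = 6). The 5 DSR rats had Drd1 levels of 114, 126, 128, 143 and 182 CPM, with a mean of 138 ± 26.3 (SD, n = 5). The DSR rat with 182 CPM, Grp7-L2, also had the highest Drd2, Adora2a and Ppp1r1b of its group. In AS rats Drd1 ranged from 104 to 191 CPM, with a median of 144 and a mean of 145 ± 34.6 (SD, n = 6). The means for the D1 receptor gene were ordered CT, ASR, DSR, AS from low to high, and the ranges overlapped between every pair of groups.

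Drd2 ranged from 128 to 256 CPM in CT rats, with a median of 171 and a mean of 183 ± 51.4 (SD, n = 6). In ASR rats the range was 143 to 257 CPM, with a median of 163 and a mean of 185 ± 44.8 (SD, n = 6). The middle values of these 2 groups lay close together, and the highest rat of each was at about the same level. DSR rats had 167, 178, 178, 200 and 261 CPM, with a mean of 197 ± 37.6 (SD, n = 5), and AS rats had 152 to 265 CPM, with a median of 210 and a mean of 209 ± 36.2 (SD, n = 6). All 4 groups overlapped, as they had for Drd1.

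Adora2a, which shares the indirect pathway neurons with Drd2, had a mean of 308 ± 62.5 CPM (SD, n = 6) in CT rats, with a range of 223 to 379 and a median of 303. Its mean in ASR rats was 308 ± 79.0 CPM (SD, n = 6), with a range of 220 to 431 and a median of 294. The DSR values were 284, 296, 308, 316 and 442 CPM, with a mean of 329 ± 64.3 (SD, n = 5). A single DSR rat, Grp7-L2, was therefore far above the other 4. AS rats ranged from 270 to 432 CPM, with a median of 340 and a mean of 350 ± 57.8 (SD, n = 6). The AS range overlapped that of every other group.

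Ppp1r1b ranged from 1214 to 2118 CPM in CT rats (median 1745, mean 1665 ± 365, SD, n = 6) and from 1161 to 2063 in ASR rats (median 1587, mean 1659 ± 349.8, SD, n = 6). DSR rats had 1478, 1572, 1604, 1786 and 2221 CPM, with a mean of 1732 ± 295 (SD, n = 5). AS rats had the highest mean, 1986 ± 346 CPM (SD, n = 6), with a range of 1415 to 2460 and a median of 1990. The AS rat Grp7-L10, at 1415 CPM, was below every DSR rat, while the AS rats Grp8-L5 and Grp8-R10 were above every CT and ASR rat.

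**Figure D1:**
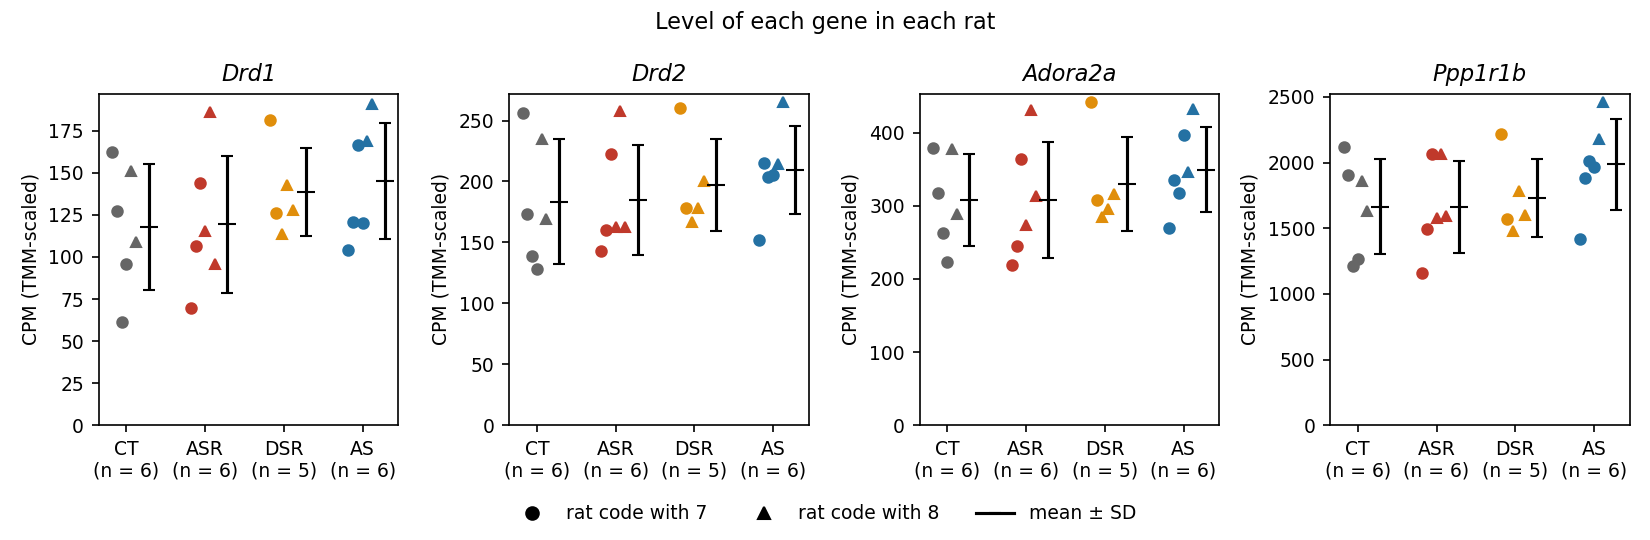
Level of Drd1, Drd2, Adora2a and Ppp1r1b in each rat, as TMM-scaled CPM on a linear axis from 0, by group. Points are rats (circles, rat code with 7, triangles, rat code with 8) and bars are the mean ± SD. The ranges of all groups overlap for every gene, and the DSR rat Grp7-L2 stands above the other DSR rats in Adora2a (442 against 284 to 316 CPM).

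The first question was whether the groups differed at all. Over the 4 groups, edgeR's quasi-likelihood F test gave Benjamini-Hochberg adjusted p values of 0.685 for Drd1, 0.82 for Drd2, 0.791 for Adora2a and 0.588 for Ppp1r1b. None of the 4 genes had an unadjusted p under 0.05, against 15.6% of all genes. The same held in each pairwise comparison, where 0 of 4 genes were called at an unadjusted or an adjusted p under 0.05. Of all genes, 4.92% passed the unadjusted threshold when ASR rats were set against CT rats, 4.63% when DSR and 21.4% when AS rats were. Against AS rats the share was 8.65% for ASR and 25.3% for DSR rats, and between ASR and DSR rats it was 4.29%. The share at the adjusted threshold was 0% throughout in this fit of all rats. With DESeq2 on all groups 0 of the 4 genes were called at either threshold, although after adjustment that tool called 884 other genes for AS vs CT, 726 for DSR vs AS and 1 for ASR vs DSR. With only 4 genes, a count of 0 cannot be told apart from these shares, and a missed threshold does not show that levels were equal. The 6 comparisons share their groups, so they are not independent of one another.

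In ASR vs CT the fold changes were close to 0. The log2 fold change was 0.019 for Drd1 (95% interval -0.44 to 0.48), 0.011 for Drd2 (-0.34 to 0.37), -0.0014 for Adora2a (-0.33 to 0.33) and -0.0057 for Ppp1r1b (-0.33 to 0.32), with edgeR adjusted p values from 0.996 to 0.999. Exact permutation tests (two-sided) on log2 CPM gave p = 0.942, 0.898, 0.933 and 0.981 in the same order. The intervals were nonetheless wide, and those of Drd1 include differences of more than 0.4 on the log2 scale in either direction.

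In DSR vs CT all 4 genes had a positive log2 fold change, the largest being that of the D1 receptor gene at 0.23 (standard error 0.23, interval -0.24 to 0.71, edgeR adjusted p = 0.982). The values were 0.10 for Drd2 (-0.27 to 0.47), 0.096 for Adora2a (-0.25 to 0.44) and 0.057 for Ppp1r1b (-0.28 to 0.39). The exact permutation p values ran from 0.316 for Drd1 to 0.688 for Ppp1r1b. The sign of 3 genes changed when single rats were left out. Without the DSR rat Grp7-L2 the log2 fold changes became -0.026 for Drd2, -0.038 for Adora2a and -0.054 for Ppp1r1b. That of Ppp1r1b was also below 0 without the CT rat Grp7-R6 (-0.024) or Grp7-R12 (-0.016). Drd1 kept its sign but ran from 0.096 (without Grp7-R6) to 0.34, with 0.11 without Grp7-L2.

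AS vs CT had the largest positive values, with log2 fold changes of 0.30 for Drd1 (standard error 0.22, interval -0.16 to 0.76), 0.19 for Drd2 (-0.17 to 0.55), 0.18 for Adora2a (-0.15 to 0.51) and 0.25 for Ppp1r1b (-0.067 to 0.58). For each gene 5 of 6 AS rats were above the CT median. The edgeR adjusted p was 0.428 for Drd1, 0.53 for Drd2, 0.515 for Adora2a and 0.34 for Ppp1r1b, and the exact permutation p was 0.212, 0.279, 0.255 and 0.154. The median over the 4 genes was 0.22, and over all genes tested it was 0.015, with a median size of change of 0.13 without regard to sign. The 4 genes were also less precisely measured. Their standard errors ran from 0.16 (Ppp1r1b) to 0.22 (Drd1), against a median of 0.11 over all genes. Their levels rose and fell together across rats, so the 4 values are not 4 separate observations. All 4 intervals include 0, so the direction of the differences is not settled by these rats. Leaving out 1 rat moved 3 of the values by more than 1.5 times. Drd1 ran from 0.16 (without the CT rat Grp7-R6) to 0.40, Drd2 from 0.097 (without the CT rat Grp7-R12) to 0.29 (without the CT rat Grp7-L7), and Adora2a from 0.095 (without Grp7-R12) to 0.23. Without the AS rat Grp8-R10 these 3 values were 0.20, 0.098 and 0.10, and without Grp7-R6 that of Drd2 was 0.11. Ppp1r1b ran from 0.17 to 0.32.

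ASR vs AS, the comparison of rats that always resisted with rats that never did, gave log2 fold changes of -0.28 for Drd1 (interval -0.74 to 0.17), -0.18 for Drd2 (-0.53 to 0.18), -0.18 for Adora2a (-0.51 to 0.15) and -0.26 for Ppp1r1b (-0.58 to 0.061). For each gene 2 of 6 ASR rats were above the AS median. The edgeR adjusted p values ran from 0.624 to 0.74, and the exact permutation p values from 0.139 (Ppp1r1b) to 0.29 (Drd2). As each rat was left out in turn, the values ran from -0.44 to -0.16 for Drd1, -0.29 to -0.089 for Drd2, -0.29 to -0.096 for Adora2a and -0.33 to -0.17 for Ppp1r1b. Those nearest to 0 were -0.16 for Drd1 (unadjusted p = 0.466 in edgeR), -0.096 for Adora2a and -0.17 for Ppp1r1b without the ASR rat Grp7-L4, and -0.089 for Drd2 without the AS rat Grp8-R10. At the other end, 2 genes crossed the unadjusted threshold, each with a different rat left out. Without the ASR rat Grp8-R7, which had the highest Drd1 of its group, Drd1 had a log2 fold change of -0.44. Its unadjusted p was 0.0498 in edgeR (adjusted 0.739), in a fit where 1080 of 16250 genes passed the same threshold. Without the AS rat Grp7-L10, Ppp1r1b had -0.33 with an unadjusted edgeR p of 0.0438 (adjusted 0.351). In that fit 2213 of 16248 genes passed.

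DSR vs AS, in which 25.3% of all genes had an unadjusted p under 0.05, gave log2 fold changes of -0.068 for Drd1 (interval -0.55 to 0.41), -0.088 for Drd2 (-0.46 to 0.28), -0.085 for Adora2a (-0.43 to 0.26) and -0.20 for Ppp1r1b (-0.53 to 0.14). For each gene 1 of 5 DSR rats was above the AS median. The exact permutation p values were 0.771, 0.571, 0.567 and 0.242. ASR vs DSR, the early against the late resistant rats, gave -0.21 for Drd1 (-0.69 to 0.26), -0.091 for Drd2 (-0.46 to 0.28), -0.098 for Adora2a (-0.44 to 0.25) and -0.062 for Ppp1r1b (-0.40 to 0.27), with exact permutation p values from 0.312 to 0.675. Without the DSR rat Grp7-L2 the values of Drd2, Adora2a and Ppp1r1b in this comparison became 0.031, 0.032 and 0.044.

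**Figure D2:**
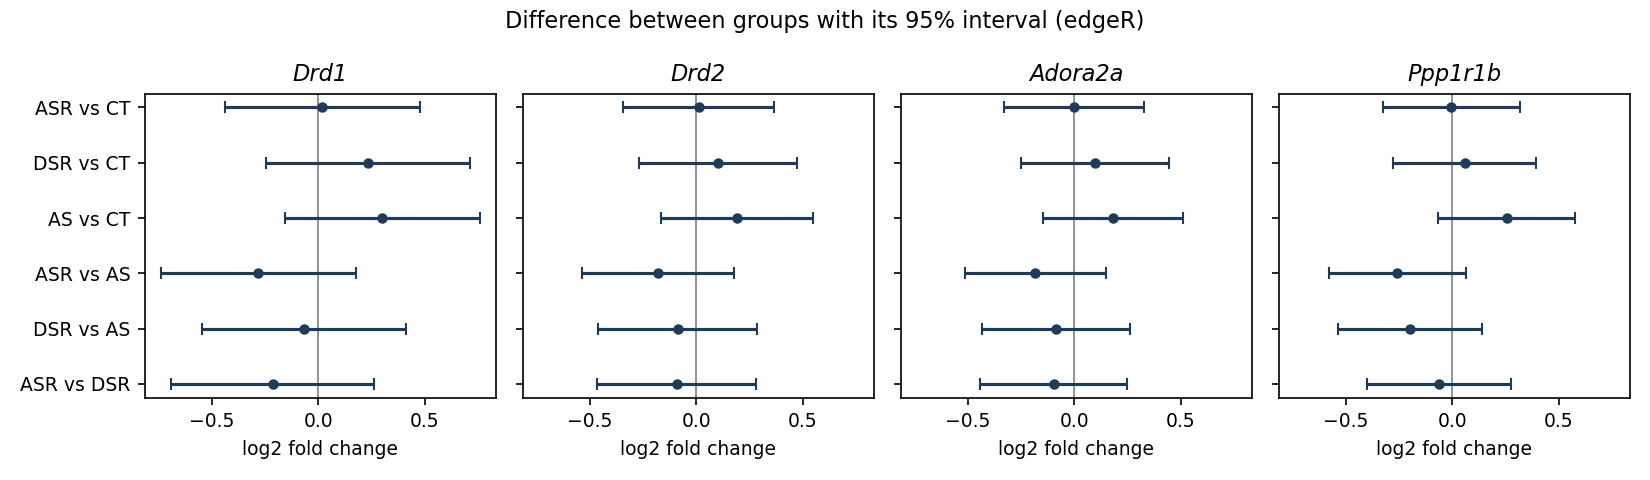
Log2 fold change of each gene in the 6 comparisons from edgeR, with its 95% interval as a horizontal bar. All 24 intervals include 0, and they are widest for Drd1.

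The rats with 7 and with 8 in their code were also compared separately. In DSR vs AS the log2 fold change of Drd1 was 0.27 in the rats with 7 and -0.48 in the rats with 8, that of Drd2 was 0.18 and -0.39, that of Adora2a 0.19 and -0.37, and that of Ppp1r1b 0.060 and -0.51. Signs also differed in DSR vs CT, where Drd1 was 0.46 and -0.021, Drd2 0.33 and -0.15, Adora2a 0.34 and -0.16, and Ppp1r1b 0.22 and -0.10. In ASR vs DSR the rats with 7 gave -0.53 for Drd1, -0.32 for Drd2, -0.44 for Adora2a and -0.27 for Ppp1r1b, and the rats with 8 gave 0.049, 0.096, 0.19 and 0.11. The rats with 7 included only 2 DSR rats, 1 of which was Grp7-L2. A test of the difference itself, group by code number in edgeR, called 0 of 16275 genes at an adjusted p under 0.05 in any comparison, with 374 to 1539 genes at an unadjusted p under 0.05 and none of the 4 genes among them. The smallest adjusted p of the 4 genes was 0.541, for Adora2a in ASR vs DSR. Among the rats with 8 only, Ppp1r1b had an unadjusted edgeR p under 0.05 in AS vs CT, ASR vs AS and DSR vs AS. Its log2 fold changes were 0.40, -0.40 and -0.51, with adjusted p values of 0.406, 0.508 and 0.281. Of the 16453 genes tested in these rats, 1743, 1262 and 1345 passed the same unadjusted threshold, in the same order. The rats with 8 included only 2 AS and 2 CT rats. AS vs CT and ASR vs AS kept their signs for all 4 genes in both subsets.

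The spread between rats of the same group was large for these genes. The standard deviation of log2 CPM within groups was 0.42 for Drd1, 0.32 for Drd2, 0.30 for Adora2a and 0.29 for Ppp1r1b. Among the 2768 genes within 2-fold of the level of Drd1, 98.2% had a smaller standard deviation, and their median was 0.11. The corresponding share was 94.4% of 1789 genes for Drd2, 93.2% of 983 genes for Adora2a and 84.8% of 66 genes for Ppp1r1b. Drd1 was thus the most variable of the 4 genes by this measure.

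This spread was shared between the genes. Each level was expressed as its deviation from the group mean, and the 6 pairs of genes were correlated over the 23 rats. The 2 genes of the indirect pathway, Drd2 and Adora2a, had the highest Pearson r, 0.93 (Spearman rho 0.92), and Drd1 and Adora2a the lowest, 0.79 (rho 0.76). Drd1 and Drd2, the receptor genes of the opposed pathways, had r = 0.86 (rho 0.83). Ppp1r1b, found in both kinds of neuron, had r = 0.92 with Drd1, 0.91 with Drd2 and 0.90 with Adora2a (rho 0.90, 0.88 and 0.89). Over 100000 permutations within groups, p was 1e-05 for r and rho of 5 pairs, the smallest value possible, and 0.00012 (r) and 0.00028 (rho) for Drd1 and Adora2a. Benjamini-Hochberg values over the 6 pairs were 1.2e-05 for 5 pairs, and 0.00012 (r) and 0.00028 (rho) for Drd1 and Adora2a. Without the 2 libraries farthest from the median of the first gene, r was 0.78 to 0.93 over the 6 pairs. Among the 13 rats with 7 it was 0.72 to 0.94, with p up to 0.0299, and among the 10 rats with 8 it was 0.83 to 0.97, with p up to 0.0419 for 5 pairs and 0.098 for Drd1 and Adora2a.

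**Figure D3:**
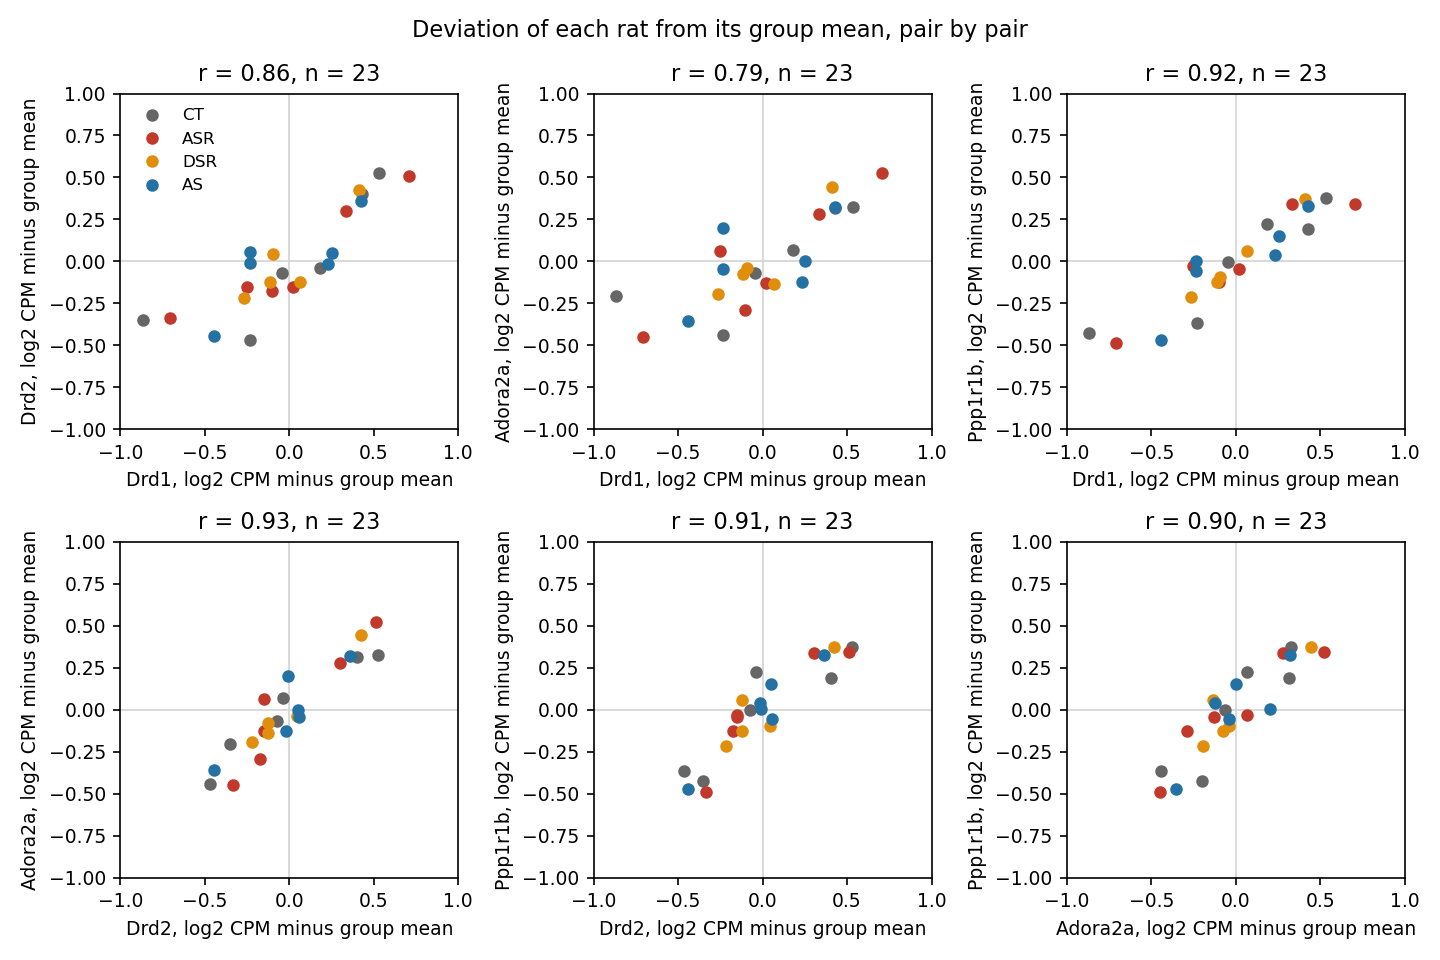
Deviation of each rat from its group mean in log2 CPM, for the 6 pairs of genes, with points colored by group (23 rats in each panel). Rats with a low deviation in 1 gene mostly have a low deviation in the others, r runs from 0.79 to 0.93, and the point farthest left in the panels with Drd1 is the CT rat Grp7-R6.

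The rats at the ends were similar but not identical for the 4 genes. Ranked by deviation from the group mean and not by level, the lowest was the CT rat Grp7-R6 for Drd1 and the CT rat Grp7-R12 for Drd2. For Adora2a and Ppp1r1b it was the ASR rat Grp7-L4. The highest deviation was that of the ASR rat Grp8-R7 for Drd1 and Adora2a and of the CT rat Grp7-L7 for Drd2 and Ppp1r1b. Grp7-L4 was below its group mean by 0.71 for Drd1, 0.33 for Drd2, 0.45 for Adora2a and 0.49 for Ppp1r1b on the log2 scale. Grp8-R7 was above it by 0.71, 0.51, 0.52 and 0.34 in the same order. The AS rat Grp7-L10 was low and the DSR rat Grp7-L2 high for all 4 genes, so that rats of every group lay toward the ends. Some rats deviated in opposite directions, as the AS rat Grp7-R9 did with Drd1 0.23 below and Adora2a 0.20 above the group mean on the log2 scale. Among the 4 genes and 2 library measures, total counts had r from -0.34 (Drd1) to -0.15 (Adora2a) with the deviations, and the mitochondrial share r from 0.11 (Drd1) to 0.36 (Drd2). The smallest permutation p of these 8 values of r was 0.0794 (adjusted over the 8 relations 0.579), and that of rho was 0.0218, for Drd2 and the mitochondrial share (rho 0.48, adjusted 0.174). Without the 2 libraries farthest in the library measure, r with total counts was -0.033 for Drd1 and 0.25 for Adora2a, and r with the mitochondrial share was 0.25 for Drd1 and 0.46 for Drd2. The mix of cell types in each dissection was not tested.

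Many other genes followed the same rats. Of the other genes tested, 141 had r over 0.8 with Drd1, 160 with Drd2, 118 with Adora2a and 124 with Ppp1r1b, where the median gene had 2 such partners and 86.4% to 89.0% of genes had fewer than these 4. A set of 56 genes outside the 4 exceeded r = 0.8 with all of them. Ranked among 16274 genes by likeness to Drd1, Ppp1r1b came 10th, Drd2 53rd and Adora2a 162nd. Ranked by likeness to Adora2a, Drd2 came 5th, Ppp1r1b 15th and Drd1 132nd. The gene most like Ppp1r1b was ENSRNOG00000003800 (r = 0.99, chromosome 10 from 97509971 to 97582188, mean 485 CPM), and the gene most like Drd2 was ENSRNOG00000013981 (r = 0.97, mean 531 CPM). These correlations are over the same 23 libraries, share their scaling and are given as a description.

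Ratios of counts within a library do not depend on the scaling between libraries, and they set the direct against the indirect pathway. The standard deviation within groups of the log2 ratio was 0.22 for Drd1/Drd2, 0.26 for Drd1/Adora2a, 0.11 for Drd2/Adora2a and 0.096 for Ppp1r1b over the geometric mean of the 3 receptors, each below that of the levels that enter it. Drd1/Drd2 in raw counts was 0.641 ± 0.109 (SD, n = 6) in CT rats and 0.636 ± 0.0879 (SD, n = 6) in ASR rats. The DSR mean was 0.706 ± 0.0599 (SD, n = 5) and the AS mean 0.693 ± 0.104 (SD, n = 6). The groups overlapped, and the lowest values were 0.442 in the CT rat Grp7-R6 and 0.487 in the ASR rat Grp7-L4. The exact permutation p for Drd1/Drd2 was 0.182 or more in the 6 comparisons.

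Drd1/Adora2a had means of 0.379 in CT, 0.384 in ASR, 0.422 in DSR and 0.417 in AS rats, with standard deviations of 0.0735, 0.058, 0.0347 and 0.0832. Its exact permutation p was 0.277 or more. Drd2/Adora2a, the ratio within the indirect pathway, was the flattest across groups, with means of 0.589 ± 0.0533 in CT, 0.604 ± 0.0495 in ASR, 0.598 ± 0.0212 in DSR and 0.599 ± 0.0501 in AS rats (SD). Its log2 differences ran from -0.00023 to 0.038, with exact permutation p of 0.606 or more.

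Ppp1r1b over the receptors was 8.98 ± 0.741 (SD, n = 6) in CT and 8.90 ± 0.693 (SD, n = 6) in ASR rats. The DSR rats had 7.99, 8.06, 8.24, 8.43 and 9.11, and the AS rats ranged from 8.72 to 9.39 with a median of 9.14. Of the DSR rats, Grp8-L9 was the only 1 above the lowest AS rat. The mean log2 ratio was 3.06 in DSR and 3.18 in AS rats, a difference of -0.12 (standard error 0.036, two-sided exact permutation p = 0.0173, smallest possible 0.00433). This was 1 of 24 ratio tests, the only 1 under 0.05, and the Benjamini-Hochberg value over the 24 was 0.415, so it failed the correction. The difference ran from -0.15 to -0.10 as each rat was left out in turn, with the exact permutation p under 0.05 each time. It was -0.15 in the rats with 7 and -0.097 in the rats with 8, where the numbers of rats are too small for the exact test to reach 0.05.

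**Figure D4:**
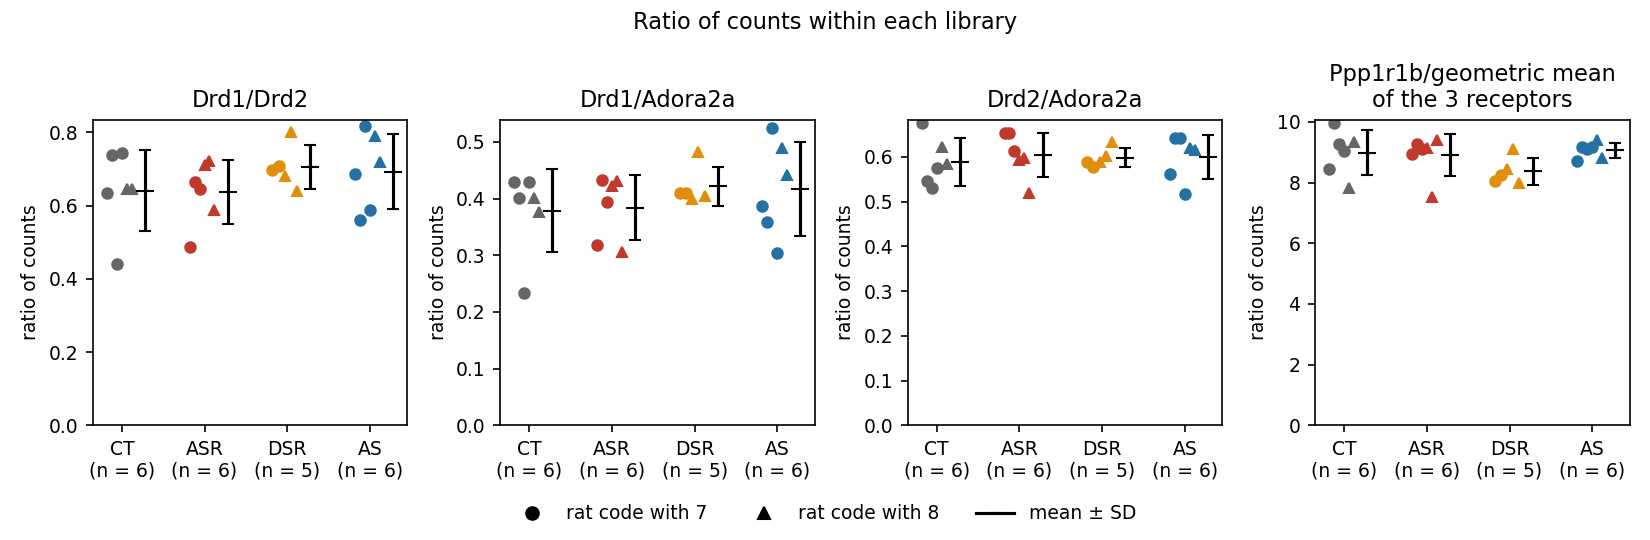
Ratio of counts within each library for Drd1/Drd2, Drd1/Adora2a, Drd2/Adora2a and Ppp1r1b over the geometric mean of the 3 receptors, by group, on linear axes from 0. Points are rats (circles, rat code with 7, triangles, rat code with 8) and bars are the mean ± SD, and 4 of 5 DSR rats lie below the AS rats in the last panel (8.72 to 9.39).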

How the data were processed

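Dorsal striatal RNA of 23 rats was sequenced as paired-end reads from oligo(dT)-selected libraries. The authors trimmed reads (Trimmomatic 0.36), aligned them to Rnor6.0 (STAR 2.5.2b), counted those in exons (featureCounts, Subread 1.5.2) and deposited raw counts per gene, with versions from the submitters' processing notes. Whether counting used strand is not given in the sources used here. Groups came from the sample labels. Each library came from its own rat.

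Genes were filtered with filterByExpr (minimum count 10, minimum total 15). TMM factors and quasi-likelihood tests came from edgeR 4.0.16 in R 4.3.3, with all 4 groups in a single fit of 19 residual degrees of freedom and Benjamini-Hochberg adjustment over all 16275 genes. Standard errors and 95% intervals were derived from the F statistic. Log2 CPM used a prior count of 2. Permutation tests used SciPy 1.17.1 and were two-sided. DESeq2 1.42.0 was an alternative. The edgeR script was tested on simulated data.

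The members, lists and tests were chosen with earlier results of these data known. Named genes were the 4 members and, of the genes most like a member by r, at most 2 identifiers. No table used here pairs Ensembl identifiers with symbols, so lists of pathway genes and cell type markers by symbol were not analysed here. Start-site windows are RefSeq sequences on GRCr8.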

Additional observations from a re-analysis of the deposited data

Results flagged for a closer look

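In 32 sets of values (4 levels and 4 ratios in 4 groups), 5 held a rat whose gap to its neighbour was large for the range of its group by Dixon's criterion, where chance flags about 1 in 20, or 1.6. In the CT rat Grp7-R6 the Drd1/Drd2 count ratio was 0.442 against 0.635 to 0.745 in the other CT rats, and the Drd1/Adora2a ratio was 0.234 against 0.377 to 0.429. Both ratios share its Drd1 level, the lowest of the 23 rats, and all 4 genes of this rat were below the CT mean. In the ASR rat Grp8-R7 the ratio of Ppp1r1b to the 3 receptors was 7.52 against 8.94 to 9.40. This rat had the highest level of its group in each receptor and also in Ppp1r1b. In the DSR rat Grp7-L2 Adora2a was at 442 CPM against 284 to 316. In the DSR rat Grp8-L9 Drd1/Adora2a was 0.483 against 0.400 to 0.411, while its Drd1 level was, after that of Grp7-L2, the highest of its group.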

How the results depend on the processing

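No paired analysis was possible because no rat code is shared between groups. At an adjusted p under 0.05, 0 of the 4 genes were called in any comparison under any alternative. At an unadjusted p under 0.05 the count rose from 0 to 1 in AS vs CT, ASR vs AS and DSR vs AS among the rats with 8 in their code (Ppp1r1b). Of all genes, 1743, 1262 and 1345 of 16453 passed that threshold in these rats. The count also rose from 0 to 1 in ASR vs AS with a rat left out (range 0 to 1). There 1080 of 16250 genes passed without Grp8-R7, and 2213 of 16248 without Grp7-L10. Of 216 log2 fold changes recomputed under the alternatives other than leaving out a rat, 195 kept their sign and their side of the threshold, 3 passed it and 18 changed sign, none of the 18 being past the threshold, and the cause was not tested. With code number as a covariate, ASR vs CT changed sign for Drd1 (-0.018) and Drd2 (-0.0064). In the rats with 7, Drd1 in ASR vs CT was -0.069, and DSR vs AS was 0.27 (Drd1), 0.18 (Drd2), 0.19 (Adora2a) and 0.060 (Ppp1r1b). In the rats with 8, ASR vs CT was -0.054 (Drd2), 0.030 (Adora2a) and 0.0033 (Ppp1r1b), DSR vs CT was -0.021 (Drd1), -0.15 (Drd2), -0.16 (Adora2a) and -0.10 (Ppp1r1b), and ASR vs DSR was 0.049, 0.096, 0.19 and 0.11. DESeq2, RLE factors, no scaling factor, fits of only 2 groups and no filter changed no sign and no call of the 4 genes.

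Leaving out each rat changed no sign in AS vs CT, with ranges of 0.16 to 0.40 (Drd1), 0.097 to 0.29 (Drd2), 0.095 to 0.23 (Adora2a) and 0.17 to 0.32 (Ppp1r1b), or in ASR vs AS, with -0.44 to -0.16, -0.29 to -0.089, -0.29 to -0.096 and -0.33 to -0.17. Drd1 also kept its sign in DSR vs CT (0.096 to 0.34) and ASR vs DSR (-0.38 to -0.094), as did Drd2 (-0.20 to -0.0030), Adora2a (-0.20 to -0.010) and Ppp1r1b (-0.29 to -0.12) in DSR vs AS. ASR vs CT ranges were -0.15 to 0.13 (Drd1), -0.11 to 0.13 (Drd2), -0.12 to 0.075 (Adora2a) and -0.080 to 0.075 (Ppp1r1b). In DSR vs CT they were -0.026 to 0.22 (Drd2), -0.038 to 0.16 (Adora2a) and -0.054 to 0.14 (Ppp1r1b), in DSR vs AS -0.17 to 0.030 (Drd1), and in ASR vs DSR -0.21 to 0.031 (Drd2), -0.22 to 0.032 (Adora2a) and -0.13 to 0.044 (Ppp1r1b).

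Differences of log2 ratios near 0 also changed sign. In the rats with 8, ASR vs CT was 0.059 (Drd1/Drd2), -0.027 (Drd1/Adora2a), -0.086 (Drd2/Adora2a) and 0.017 (Ppp1r1b/receptors), DSR vs AS was -0.096 (Drd1/Drd2) and -0.12 (Drd1/Adora2a), and Drd2/Adora2a was -0.12 in ASR vs AS and -0.095 in ASR vs DSR. In the rats with 7, Ppp1r1b/receptors was -0.019 in AS vs CT and 0.0094 in ASR vs AS. With a rat left out, Drd1/Drd2 ran from -0.11 to 0.072 in ASR vs CT and -0.023 to 0.085 in DSR vs AS, and Drd1/Adora2a from -0.098 to 0.098 and -0.052 to 0.11. Drd2/Adora2a ran from -0.0035 to 0.067 in DSR vs CT, -0.0033 to 0.069 in AS vs CT, -0.030 to 0.055 in ASR vs AS, -0.043 to 0.021 in DSR vs AS and -0.011 to 0.055 in ASR vs DSR. Ppp1r1b/receptors ran from -0.052 to 0.035 in ASR vs CT, -0.021 to 0.048 in AS vs CT and -0.047 to 0.017 in ASR vs AS. The number of ratio differences with an exact permutation p under 0.05 ran from 1 to 2 of 24, the second being DSR vs CT (-0.14) without the CT rat Grp8-L11 or ASR vs DSR (0.13) without the ASR rat Grp8-R7, both for Ppp1r1b/receptors. Of 30 correlations under alternatives, 29 kept their sign and stayed past the threshold, and Drd1 with Adora2a in the rats with 8 (r = 0.83) did not.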
